A study of Mus musculus with 3 samples.

Results

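Apoe-high microglia are the sorted mouse brain cells in which Apoe, the transcript of apolipoprotein E, made up at least 20 of every 10000 transcripts counted. Transcripts were counted as unique molecular identifiers (UMIs), each UMI standing for 1 captured RNA molecule. Cells were chosen by their own Apoe count among cells with more than 200 and at most 8000 genes, at most 10% mitochondrial UMIs and at least 2000 UMIs. Cells with 5 or more UMIs over Mrc1, Ms4a7, Cd163, Lyve1 and Cbr2 (genes of macrophages at the brain borders), over Plac8, Ly6c2 and Chil3 (monocyte genes), or over Ccl3 and Ccl4 (chemokine genes) were left out. In all, 560 Apoe-high cells were found among 12395 cells under these filters and 18340 barcodes in the series. They were compared, within each library, with 10429 Apoe-low cells, which passed the same filters and had fewer than 5 Apoe UMIs per 10000. The 1406 cells in between entered neither group.

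The hCD33m library came from mice that carry the short isoform of human CD33, and the hCD33M library from mice that carry the long isoform. Both transgenes sit behind a floxed stop cassette at the Rosa26 locus and are switched on by Cx3cr1-Cre, so they mark the Cx3cr1 lineage and not microglia alone. Each transgenic line was made in mouse embryonic stem cells. The control library is labelled wild type. Mice were 8 weeks old by the labels, on a C57BL/6 background, and 2 mice were pooled per library, so each genotype is 1 sample and differences between mice cannot be measured. Cells were sorted as CD11b+CD45lowCx3cr1+ from tissue handled in the presence of drugs that stop transcription (actinomycin D, triptolide) and translation (anisomycin). Human CD33 transcripts were not analysed here. The hCD33m library is labelled female and the other libraries male, yet the Y-linked genes Ddx3y and Eif2s3y stood at 90.1 and 63.7 counts per 1000000 UMIs (CPM) in hCD33m Apoe-high cells, against 83.2 and 62.6 CPM in control Apoe-high cells.

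Apolipoprotein E is the lipid carrier that moves cholesterol and phospholipids between cells, and in the healthy brain astrocytes are its main source. Resting microglia carry little of it, while microglia near plaques, dying neurons or myelin debris, microglia of early postnatal life, and macrophages at the brain borders carry much more. In mice, Trem2 and its adaptor Tyrobp are required for the full plaque-associated programme, in which Apoe, Lpl, Cst7, Axl and Itgax go up and P2ry12 and Tmem119 go down.

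Apoe-high cells numbered 218 of 4575 cells in the hCD33m library (4.77%, exact 95% interval 4.17 to 5.42%) and 137 of 3822 in the hCD33M library (3.58%, 3.02 to 4.22%), against 205 of 3998 in the control library (5.13%, 4.46 to 5.86%). The hCD33M share was the lowest, and its interval did not reach that of the control. These intervals cover counting error only, and with 1 library per genotype no test between genotypes was possible. Thinned to 2000 UMIs per cell, the shares were 6.05%, 4.47% and 6.03% in hCD33m, hCD33M and control. Over all cells under the filters Apoe stood at 537 CPM in hCD33m and 443 CPM in hCD33M, against 660.4 CPM in control, in the same order as the shares. Apoe-high cells held 61.8%, 56.1% and 69.8% of those Apoe UMIs in hCD33m, hCD33M and control.

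**Figure D1:**
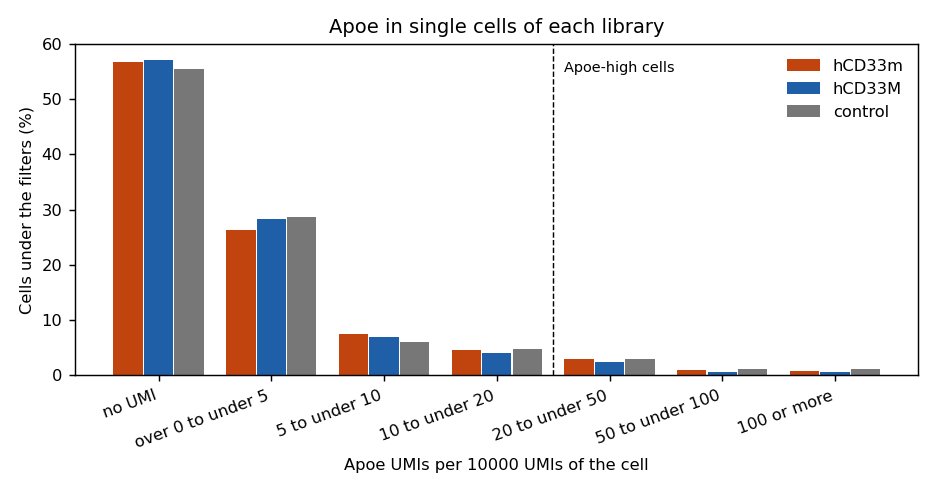
Percent of cells under the filters (vertical axis) by Apoe UMIs per 10000 UMIs of the cell (horizontal axis) in the hCD33m, hCD33M and control libraries. More than 55% of cells in each library had no Apoe UMI, and the cells right of the dashed line are the Apoe-high cells, of which 38, 24 and 47 had 100 or more per 10000.

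The cut falls on a slope and not in a gap. The 3 cells just inside it had 20 to 20.4 Apoe UMIs per 10000 and the 3 just outside it 19.6 to 19.97, taken over the libraries, and 35 to 39 cells per library lay between 18 and 22. Members ranged widely, with a median of 38.6 per 10000 and a highest cell of 729 in hCD33m, 34.3 and 846 in hCD33M, and 43.4 and 1127 in control. In whole molecules a member had at least 4 Apoe UMIs, and medians were 25, 21 and 27. Summed over members, Apoe was at 6884, 7338 and 8296 CPM in hCD33m, hCD33M and control Apoe-high cells, against 92.5, 97.4 and 96.4 CPM in the Apoe-low cells. This difference is what the cells were selected on and was not tested. The gene lies on chromosome 7 (chr7:19696109-19699188, minus strand, mm10).

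Depth differed little between the groups. The Apoe-high cells' median UMI count was 5511, 5160 and 5584 in hCD33m, hCD33M and control, against 5209.5, 5229.5 and 5325 in Apoe-low cells. The median mitochondrial share was 1.64%, 1.75% and 1.98% in Apoe-high cells, against 1.24%, 1.20% and 1.45% in Apoe-low cells, and its part in the results was not tested. The libraries held 32272657 to 40629705 UMIs, and the Apoe-high sums 984503 to 1553169. Few barcodes were shared between libraries (9 between hCD33m and hCD33M, 12 between hCD33m and control, 4 between hCD33M and control), and 1 of them belonged to an Apoe-high cell.

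Most members carried the microglial transcripts that their name calls for, but a minority did not. P2ry12, the purinergic receptor of resting microglia, was at 2641, 2738 and 2679 CPM in Apoe-high cells of hCD33m, hCD33M and control, against 3484, 3612 and 3551 CPM in Apoe-low cells. Cells with fewer than 20 UMIs of P2ry12 and Tmem119 per 10000 made up 46 of 218, 25 of 137 and 28 of 205 Apoe-high cells (21.1%, 18.2% and 13.7%), against 2.63%, 1.59% and 1.79% of Apoe-low cells. These cells were therefore left out in an alternative whose values stand beside the counts they change.

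Genes other than Apoe, the mitochondrial genes and the 10 filter genes were compared by summing UMIs over Apoe-high and over Apoe-low cells of each library. The 6 sums were fitted with edgeR's quasi-likelihood test with library as a block, TMM scaling and Benjamini-Hochberg adjustment over 8390 genes with a mean of at least 10 CPM. The libraries stand as 3 replicates of the contrast although they differ in genotype. The p-values rest on a spread estimated with information shared across all genes tested. They are thus not a measure of each gene's own spread between the 3 libraries alone, nor of differences between mice. At an adjusted p of 0.05, 483 genes were higher in Apoe-high cells (5.76% of those tested) and 205 were lower (2.44%), and 647 of the 688 moved the same way in every library. Only 51 genes were higher and 3 lower by 2-fold or more, so most changes were small. A call can rest on few cells or on 1 library. Ttr was called higher (log2 ratio 9.69), although nearly all its UMIs came from 1 cell in each transgenic library. Of 3 tested red cell genes 2 were called lower, although their list was high only in hCD33M Apoe-low cells. The split depended on scaling: by UMI totals in place of TMM, 336 genes were higher (4%) and 750 lower (8.94%), the median log2 ratio over all genes then being -0.0964 in place of -0.0045. Of the 483 genes higher under TMM 336 were also higher by UMI totals, and all 205 lower ones were also lower. Leaving out 1 library gave 143 lower genes without hCD33m, 128 without hCD33M and 158 without control. Without cells poor in microglial transcripts 273 genes were higher and 72 lower.

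The direction carried over to a library that had no part in the call. Of 356 genes called higher without hCD33m, 345 lay above that library's own median ratio (96.9%), where 49.7% of all genes tested lay above it. For hCD33M this was 374 of 386 and for control 424 of 443. Of genes called lower in the other libraries, 131 of 143, 115 of 128 and 135 of 158 lay below the median in hCD33m, hCD33M and control.

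MHC class II genes were far higher in Apoe-high cells, and H2-Eb1 and H2-Aa had the highest ratios under the rule for named genes, which asks for a mean of 50 CPM and the same direction in every library. These genes encode the molecules that show peptides to CD4 T cells, with Cd74 the invariant chain that holds the groove until the endosome. H2-Aa was at 576, 539 and 526 CPM in Apoe-high cells of hCD33m, hCD33M and control, against 20.02, 1.10 and 1.82 CPM in Apoe-low cells, a log2 ratio of 6.49 ± 0.213 (SE, edgeR adjusted p 2.96e-38). Cd74 was at 1423, 1276 and 1359.5 CPM, against 60.8, 15.1 and 21.7 CPM (5.56 ± 0.11). H2-Eb1 (506, 472 and 464 CPM, against 15.6, 1.06 and 1.61 CPM) and H2-Ab1 (591, 513 and 513 CPM, against 25.1, 7.04 and 10.7 CPM) had log2 ratios of 6.57 and 5.40. All 3 Apoe-high sums lay above all 3 Apoe-low sums for each of these genes, which picking genes by their high ratios favours. All 7 tested members of the class II list were higher, with a median log2 ratio of 5.40 against -0.0045 over all genes tested. The remaining members moved far less, with H2-DMa, which helps peptides load, at 0.40. Ciita, the master regulator of the class, was too low to test, with 25, 10 and 17 UMIs in Apoe-high cells against 8, 0 and 3 in the far larger Apoe-low sums.

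The class II promoters are shown because these genes moved together. Each class II promoter carries a conserved S, X and Y module, on which RFX and NF-Y assemble and to which CIITA is recruited. Below are the 150 bases before the start of H2-Aa (chr17:34287824-34287973, minus strand) and of H2-Eb1 (chr17:34305717-34305866, plus strand), from RefSeq on GRCm38.p6, written 5′ to 3′ with the Y box CTGATTGG in capitals.
H2-Aa: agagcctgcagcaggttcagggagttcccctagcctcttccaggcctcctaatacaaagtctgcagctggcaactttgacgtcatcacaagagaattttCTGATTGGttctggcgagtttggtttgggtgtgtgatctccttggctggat
H2-Eb1: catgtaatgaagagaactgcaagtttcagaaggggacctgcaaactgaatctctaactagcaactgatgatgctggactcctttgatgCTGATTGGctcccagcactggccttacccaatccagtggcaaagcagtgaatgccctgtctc
The box began 51 bases before the start of H2-Aa and 62 bases before that of H2-Eb1. Searched on both strands as CTGATTGG, it was present in 1039 of 32851 windows of the same length (3.16%). Of the class II list, 5 genes had a window to search: H2-Aa, H2-Eb1, H2-DMa, H2-DMb1 and the cathepsin Ctss. Of these, H2-Aa and H2-Eb1 held the box. H2-Ab1 and Cd74 had no matched window, so whether they hold it was not tested. A match is a description of the letters and not a measured binding site.

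Class II transcripts were not spread over the Apoe-high cells but gathered in a few. At least 5 UMIs of Cd74, H2-Aa, H2-Ab1 and H2-Eb1 together were found in 28 of 218, 13 of 137 and 13 of 205 Apoe-high cells (12.8%, 9.49% and 6.34%), against 22 of 3802, 12 of 3268 and 13 of 3359 Apoe-low cells. Cells with 100 or more such UMIs numbered 15, 7 and 8 in the Apoe-high groups and 5, 0 and 1 in the Apoe-low groups. Those 30 Apoe-high cells held 95.5% to 96.9% of the class II UMIs of their group. A further 151, 101 and 135 Apoe-high cells had no class II UMI at all. Apoe itself was not confined to the class II cells, at 6066, 6448 and 8366 CPM in Apoe-high cells with fewer than 5 class II UMIs.

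**Figure D2:**
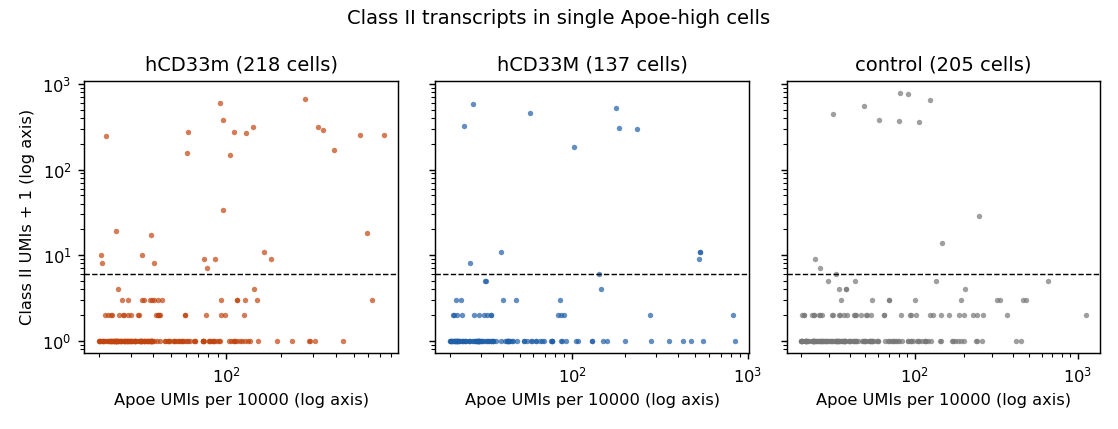
Class II UMIs plus 1 (vertical log axis; Cd74, H2-Aa, H2-Ab1 and H2-Eb1 summed) against Apoe UMIs per 10000 (horizontal log axis) in each Apoe-high cell of the hCD33m, hCD33M and control libraries, with the limit of 5 UMIs dashed. A few cells stand above 100 UMIs across the Apoe range, and most cells lie at or near 0.

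The class II cells also differed in other genes. P2ry12 was at 1888, 1915 and 2095 CPM in them, below the 2795, 2875 and 2754 CPM of the remaining Apoe-high cells. Siglech, a microglial lectin, was at 1442, 1296 and 1357 CPM in the class II cells and at 2026, 1922 and 1963 CPM in the remaining ones. Lyz2, a lysozyme of macrophages and monocytes, was at 4869.7, 5026 and 5466 CPM in the class II cells and at 1015, 1205 and 944 CPM in the remaining Apoe-high cells, against 359, 329.9 and 356 CPM in Apoe-low cells. The Apoe-high cells poor in class II UMIs were thus above Apoe-low cells in all 3 libraries.

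Markers of other cell types moved with these results. Over all Apoe-high cells the monocyte markers outside the rule summed to 199.6, 164 and 152 CPM in hCD33m, hCD33M and control, against 26.6, 16.9 and 18.5 CPM in Apoe-low cells, and both tested members rose. Ccr2, the chemokine receptor of monocytes, was at 97.9, 74.1 and 81.9 CPM, against 10.1, 7.29 and 6.81 CPM, a log2 ratio of 3.49 ± 0.138 (edgeR adjusted p 3.5e-33). In hCD33m, hCD33M and control 5 cells per library held 48.0%, 80.8% and 72.4% of the Ccr2 UMIs of Apoe-high cells. S100a6, a calcium-binding protein, had a log2 ratio of 4.21, and 82.9% to 100% of its Apoe-high UMIs came from 5 cells per library. Without the class II cells neither Ccr2 nor S100a6 reached the 10 CPM filter. Clec12a, an inhibitory lectin of myeloid cells that border macrophages and monocytes share, had 40, 24 and 24 UMIs in Apoe-high cells against 10, 0 and 0 in Apoe-low cells. Of 7 border macrophage markers outside the rule that were tested, 4 were higher and 1, Maf, was lower, while without the class II cells none of 6 was higher and 1 was lower. The median log2 ratio of the 7 tested was 0.64, and 0.11 for the 6 tested without the class II cells. Of all genes tested 5.76% were higher and 2.44% lower. The sum of the whole list of 17 was 2109.9, 2266 and 2063 CPM in Apoe-high cells, against 2307, 2502 and 2222 CPM in Apoe-low cells. That sum includes Maf, which was widespread. A Maf UMI was present in 93.6%, 92.7% and 93.7% of Apoe-high cells, against 97.9%, 98.6% and 97.3% of Apoe-low cells. The sum therefore does not show how the rarer markers moved.

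The border macrophage filter genes themselves stayed low, as the rule required. Mrc1, the mannose receptor, was at 21.9, 34.5 and 29.7 CPM in Apoe-high cells, against 5.60, 10.8 and 8.03 CPM in Apoe-low cells. Lyve1, Cd163, Ly6c2 and Chil3 were at 0 in every Apoe-high sum. Pf4, a chemokine of border macrophages that the rule did not use, had 25, 14 and 1 UMIs. Per 1000 CPM of Apoe gained over Apoe-low cells, Pf4 gained 2.24 and 1.90 CPM in hCD33m and hCD33M Apoe-high cells and fell by 0.0113 CPM in control ones, against gains of 54.5, 64.5 and 43.8 CPM in the cells that the border macrophage filter removed. Lyz2 gained 193, 196 and 134 CPM per 1000 CPM of Apoe in Apoe-high cells, against 199.7, 152 and 183 CPM in the filtered-out cells. Cd63, a tetraspanin of late endosomes, went the other way, with 43.8, 47.7 and 33.8 CPM, against 9.82, 8.88 and 9.05 CPM.

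Without the cells of 5 or more class II UMIs in either group, 336 genes were higher in Apoe-high cells (4.01% of 8387) and 127 lower (1.51%), and 329 and 125 of these were among the calls made with all cells. This alternative was chosen after the data were seen. H2-Ab1 then had a log2 ratio of 0.54 with an adjusted p of 0.309 and H2-Aa fell under the 10 CPM filter, which the choice of cells fixes. Lyz2 was at 1.68, Ifitm3 at 1.96 and Cd63 at 0.93. Cybb, the catalytic subunit of the phagocyte NADPH oxidase, was at 6.10, as large as with all cells.

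Of the 12 highest genes 8 were outside class II. Cybb was at 121, 116 and 81.3 CPM in Apoe-high cells of hCD33m, hCD33M and control, against 2.47, 0.977 and 1.74 CPM in Apoe-low cells (log2 ratio 6.01 ± 0.194, edgeR adjusted p 1.45e-38). A Cybb UMI was present in 16.1%, 16.8% and 15.6% of Apoe-high cells, against 0.71%, 0.551% and 0.714% of Apoe-low cells, and at 2000 UMIs per cell in 9.17%, 10.2% and 8.29%, against 0.105%, 0.275% and 0.179%. Cybb was thus carried by about 1 Apoe-high cell in 6, and 42.0% to 57.9% of its UMIs came from 5 cells per library. Lyz2 was at 1671, 1750.1 and 1458 CPM, against 359, 329.9 and 356 CPM (2.31 ± 0.0391). Ifitm3, a membrane protein that blocks virus entry, was at 150.02, 119.9 and 105 CPM, against 20.8, 21.8 and 24.8 CPM (2.57 ± 0.105).

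Ifi27l2a, another interferon-induced gene, was at 82.4, 119.9 and 101 CPM in Apoe-high cells, against 35.7, 46.2 and 44.5 CPM in Apoe-low cells (1.34 ± 0.0935). Emp3, Cd52 and St8sia4 had log2 ratios of 1.27, 1.06 and 0.96. Cd52 is a small surface glycoprotein of leukocytes and St8sia4 a polysialyltransferase. Cd63 was at 736, 731 and 678 CPM, against 439, 386 and 401 CPM (0.90 ± 0.0403, edgeR adjusted p 5.46e-30), and unlike Cybb it was widespread, with the 5 richest cells holding 12.4% to 18.2% of its UMIs. For all 12 genes the Apoe-high sums lay above every Apoe-low sum, which picking the highest ratios favours.

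**Figure D3:**
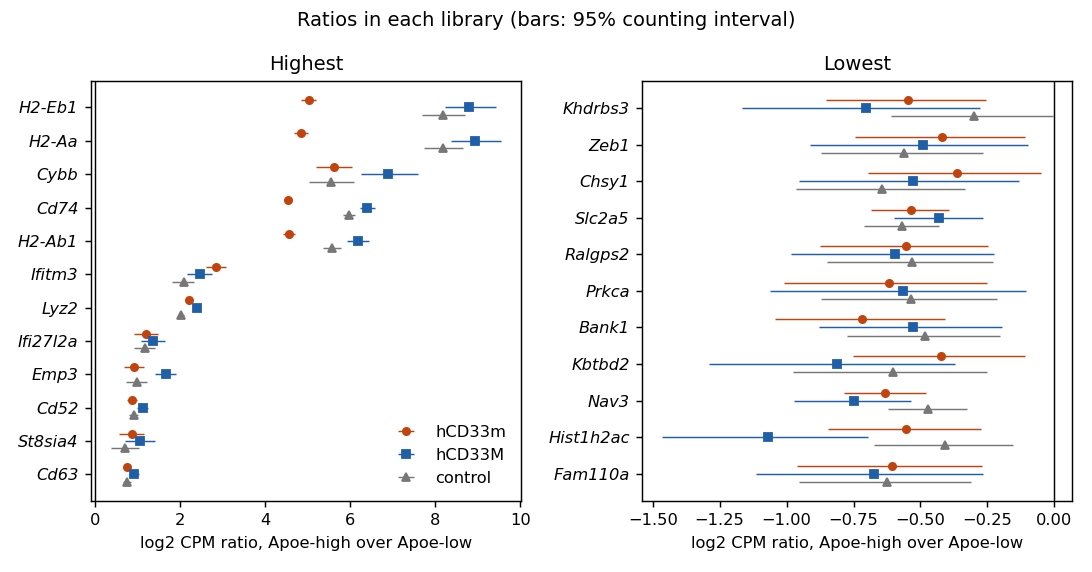
Log2 CPM ratios of Apoe-high over Apoe-low cells (horizontal axis, scaled by UMI totals) in the hCD33m, hCD33M and control libraries, for the 12 highest genes and 11 of the lowest under the naming rule. Bars are exact 95% counting intervals. The class II genes show the widest spread between libraries, since their Apoe-low level was highest in hCD33m, and the lowest genes all lie within about 1.1 of 0.

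The disease-associated programme was up almost throughout. Of 24 tested members of the list, 23 were higher and none lower in Apoe-high cells, with a median log2 ratio of 0.53 against -0.0045 over all genes tested, of which 5.76% were higher. Axl, a receptor for phosphatidylserine-bridging ligands, was at 41.2, 45.7 and 49.7 CPM in hCD33m, hCD33M and control, against 5.06, 4.27 and 4.73 CPM in Apoe-low cells (log2 ratio 3.36 ± 0.209, edgeR adjusted p 1.22e-22). Lpl, the lipoprotein lipase, was at 50.9, 55.9 and 81.9 CPM, against 15.0, 11.5 and 19.8 CPM (2.10 ± 0.13). Cst7, the protease inhibitor cystatin F, was at 67.6, 59.9 and 37.4 CPM, against 27.9, 16.2 and 17.5 CPM (1.47 ± 0.132). For these 3 genes, named for their large ratios within the list, every Apoe-high sum lay above every Apoe-low sum.

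Itgax, the CD11c integrin subunit, had a log2 ratio of 2.52 and Lgals3, galectin 3, one of 4.31, at 18.03 to 25.4 CPM and at 32.2 to 38.6 CPM in Apoe-high cells. Lysosomal Ctsb, Ctsz and Ctsl moved by 0.42, 0.31 and 0.25. Tyrobp, the Trem2 adaptor, was at 3073, 2860.3 and 3098 CPM, against 2703, 2519 and 2733 CPM (0.28 ± 0.0256). Trem2 was at 2700.3, 2598 and 2695 CPM, against 2635, 2456 and 2592 CPM, with sums that overlapped (0.15 ± 0.0262, edgeR adjusted p 9.37e-06), and by UMI totals its ratio was 0.06 with an adjusted p of 0.123. Lgals3 and Itgax are also markers of dendritic cells and monocytes, and without the class II cells both fell under the 10 CPM filter. Axl, Lpl and Cst7 then had log2 ratios of 2.91, 1.99 and 1.55. Of 22 tested members 20 were higher, where 4.01% of all genes tested were. Spp1, Gpnmb, Igf1 and Apoc1 were too low to test.

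Cells with at least 3 UMIs of 7 disease-associated genes made up 36 of 218, 27 of 137 and 39 of 205 Apoe-high cells (16.5%, 19.7% and 19.0%), against 4.52%, 3.46% and 3.99% of Apoe-low cells. At 2000 UMIs per cell and at least 2 UMIs the shares were 9.63%, 10.2% and 9.27%, against 2.24%, 1.25% and 1.67%. Of the 28, 13 and 13 Apoe-high cells over the class II limit, 6, 8 and 9 were also over the disease-associated limit of 3 UMIs. The class II cells were deeper, with median UMI counts of 7010, 6196 and 9414, against 5348, 5062.5 and 5563.5 in the remaining Apoe-high cells. The 7 genes include Itgax, and the overlap was not counted in thinned cells, so it does not show cells of both kinds. Most members, 159, 105 and 158 cells (72.9%, 76.6% and 77.1%), met neither of these limits nor that for interferon-stimulated genes.

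Homeostatic genes were modestly lower. Of 20 tested members 14 were lower and 3 higher, where 2.44% of all genes tested were lower and 5.76% higher, and the median log2 ratio was -0.15. P2ry12 had a log2 ratio of -0.31 ± 0.0252 (edgeR adjusted p 6.16e-17). P2ry13, a related receptor, was at 572, 611 and 624 CPM in Apoe-high cells of hCD33m, hCD33M and control, against 699.8, 787 and 828 CPM in Apoe-low cells (-0.26 ± 0.038). Sall1, the transcription factor that keeps microglial identity, was at 344, 332 and 375 CPM, against 444, 443 and 441 CPM (-0.24 ± 0.0459), and Tmem119, a surface marker of microglia, at 1245, 1419 and 1280.2 CPM, against 1547, 1754 and 1598 CPM (-0.22 ± 0.0302). Slc2a5, a fructose transporter of microglia, moved most (-0.42).

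The 3 higher members were Trem2, Ctsd and Cst3, and Cst3 (0.07) turned to -0.02 by UMI totals, with an adjusted p of 0.0054 on the lower side. By UMI totals 18 members were lower and 1 higher, where 8.94% and 4% of all genes tested were. Without cells poor in microglial transcripts 8 members were lower, without the class II cells 12, and without library as a block 2.

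Of the lowest genes 11 are given, and none of their ratios passed -0.54. Fam110a was at 47.6, 49.8 and 54.8 CPM in Apoe-high cells, against 72.5, 79.5 and 84.5 CPM in Apoe-low cells (-0.54 ± 0.108, edgeR adjusted p 0.000131). Nav3, a neuron navigator family gene, was at 234, 181 and 261 CPM, against 363, 304 and 361 CPM (-0.51 ± 0.0531). The remaining ones were Hist1h2ac (a histone), Kbtbd2, Bank1 (a signalling scaffold first known from B cells), Prkca (protein kinase C alpha), Ralgps2, Slc2a5, Chsy1 (chondroitin synthase), Zeb1 (a zinc finger repressor) and Khdrbs3. For each the Apoe-high sums lay below all Apoe-low sums, which picking the lowest ratios favours. With cells thinned to 2000 UMIs, 9 of these 11 no longer passed, Nav3 and Slc2a5 being the exceptions, and in DESeq2 Prkca, Chsy1, Zeb1 and Khdrbs3 did not pass.

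Ribosomal protein genes rose together. All 32 listed genes were higher, where 5.76% of all genes tested were, with ratios of 0.30 to 0.75 and a median of 0.55. All 32 were also called by UMI totals and without the class II cells (median 0.43). Rpsa was at 859.5, 865 and 906 CPM in Apoe-high cells of hCD33m, hCD33M and control, against 555, 534 and 583 CPM in Apoe-low cells (0.75 ± 0.0364, edgeR adjusted p 4.22e-28). Rpl32 was at 1275, 1274 and 1318 CPM, against 852, 829 and 907 CPM. Of 19 nuclear genes of mitochondrial respiration 9 were higher, with Cox4i1 at 0.43, and none was lower.

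Of 24 lysosomal genes 16 were higher and none lower, where 5.76% of all genes tested were higher, with a median of 0.24. By UMI totals 15 were higher and 2 lower, where 4% and 8.94% of all genes tested were. Ctss, the cathepsin that trims the invariant chain, was at 7674, 7287 and 7903 CPM, against 6574, 6119 and 6545 CPM (0.34 ± 0.0212), and Psap, the precursor of the saposins, at 2008, 1919 and 2083 CPM, against 1672, 1605 and 1737 CPM. Of 8 iron genes 4 were higher and 1 lower, where 2.44% of all genes tested were lower. Fth1 and Ftl1, the ferritin chains, and Hmox1, which frees iron from haem, were higher by 0.59, 0.45 and 0.77, while Slc40a1, the iron exporter ferroportin, was lower (-0.34 ± 0.0652, edgeR adjusted p 6.61e-05).

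Of 15 tested lipid transport genes 5 were higher (Lpl, Plin2, Npc2, Soat1 and Abca1) and 2 lower (Lpcat3 and Mylip), with a median of 0.17. Of all genes tested 5.76% were higher and 2.44% lower. Without the class II cells 3 were higher and 1 lower, where 4.01% and 1.51% of all genes tested were. Npc2, which hands cholesterol out of the lysosome, was at 779, 834 and 755 CPM, against 668, 604 and 640.5 CPM (0.39 ± 0.039). Soat1, which esterifies cholesterol for storage, was at 0.38 and Plin2, a lipid droplet coat protein, at 0.60 ± 0.148, and Plin2 did not pass without the class II cells (adjusted p 0.276) or in DESeq2 (0.078). Abca1, the cholesterol exporter that lipidates apolipoprotein E, had only 0.18 and did not pass by UMI totals. None of 8 cholesterol synthesis genes passed the test, nor did Nr1h2, the LXR beta receptor (-0.22, edgeR adjusted p 0.361). Srebf2, the main activator of cholesterol synthesis, had 27.0, 27.4 and 15.5 CPM, against 16.6, 18.1 and 18.7 CPM, and did not pass either (adjusted p 0.125).

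Of the genes beside Apoe on chromosome 7, none of the 4 that were tested passed. Tomm40, a mitochondrial import pore, was at 54.7, 55.9 and 66.4 CPM in Apoe-high cells, against 54.7, 53.9 and 54.4 CPM in Apoe-low cells (0.22 ± 0.107, edgeR adjusted p 0.275). Relb, Clptm1 and Nectin2 had ratios of 0.16, -0.02 and 0.01, none passing the test. Apoc1, the neighbouring apolipoprotein gene (chr7:19689481-19692660), had 7, 4 and 11 UMIs in Apoe-high cells against 5, 1 and 2 in Apoe-low cells. Those counts equal 4.51, 4.06 and 7.09 CPM, against 0.190, 0.0407 and 0.0868 CPM, and 5 cells per library held 72.7% to 100% of them. The log2 ratios of Apoc1 were 4.57 (exact 95% interval 2.69 to 6.56), 6.64 (3.304 to 12.3) and 6.35 (4.16 to 9.57), all above 0 although it was too low for the fit. Apoc4 and Apoc2 had at most 1.02 CPM.

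Class I genes were higher in 8 of 11 tested, but in 4 of 11 by UMI totals and in 4 of 11 without the class II cells. Over all genes tested the shares higher were 5.76%, 4% and 4.01%. H2-D1, a classical class I heavy chain, was at 860.2, 964 and 1087 CPM in Apoe-high cells of hCD33m, hCD33M and control, against 521, 646 and 662 CPM in Apoe-low cells (0.77 ± 0.0359, edgeR adjusted p 4.29e-29), and B2m, the shared light chain, at 1894, 1962 and 2117 CPM, against 1488, 1569.97 and 1667 CPM. Of 11 interferon-stimulated genes 6 were higher, with Ifi204 at 1.45 and Bst2 at 0.43. Cells with at least 5 UMIs of 8 interferon-stimulated genes were few in both groups, at 5, 0 and 5 Apoe-high cells. Complement genes C1qa, C1qb and C1qc had ratios of 0.14, 0.17 and 0.10 with overlapping sums, and C1qa and C1qc did not pass by UMI totals (adjusted p 0.0623 and 0.775).

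Among signalling molecules, Cxcl16, a chemokine that also binds oxidised lipoprotein, was at 81.8, 104 and 103 CPM, against 63.8, 66.6 and 59.5 CPM (0.69 ± 0.0973), and Csf1, the microglial growth factor, at 0.69 ± 0.193. Il18 was lower (-0.45 ± 0.125, edgeR adjusted p 0.0112). Neither Csf1 nor Il18 passed in DESeq2 (adjusted p 0.123 and 0.249). Ccl12 was at 182, 126 and 271 CPM in hCD33m, hCD33M and control, against 118, 122 and 155 CPM, with overlapping sums (0.66 ± 0.0708), and it did not pass in DESeq2 (adjusted p 0.114). In hCD33m 1 cell held 104 of its 282 UMIs, and a Ccl12 UMI was present in 31.2%, 34.3% and 48.3% of Apoe-high cells, against 35.9%, 37.8% and 43.1% of Apoe-low cells, so a higher share of cells was seen in control alone of these libraries. Vcam1, an adhesion molecule, and Bcl2a1d, a survival factor, both NF-kB targets, had ratios of 1.34 and 1.16. Both rest on few UMIs, with 26, 18 and 33 for Vcam1 and 28, 25 and 24 for Bcl2a1d in Apoe-high cells. For Vcam1 5 cells per library held 84.6%, 61.1% and 45.5% of them.

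**Figure D4:**
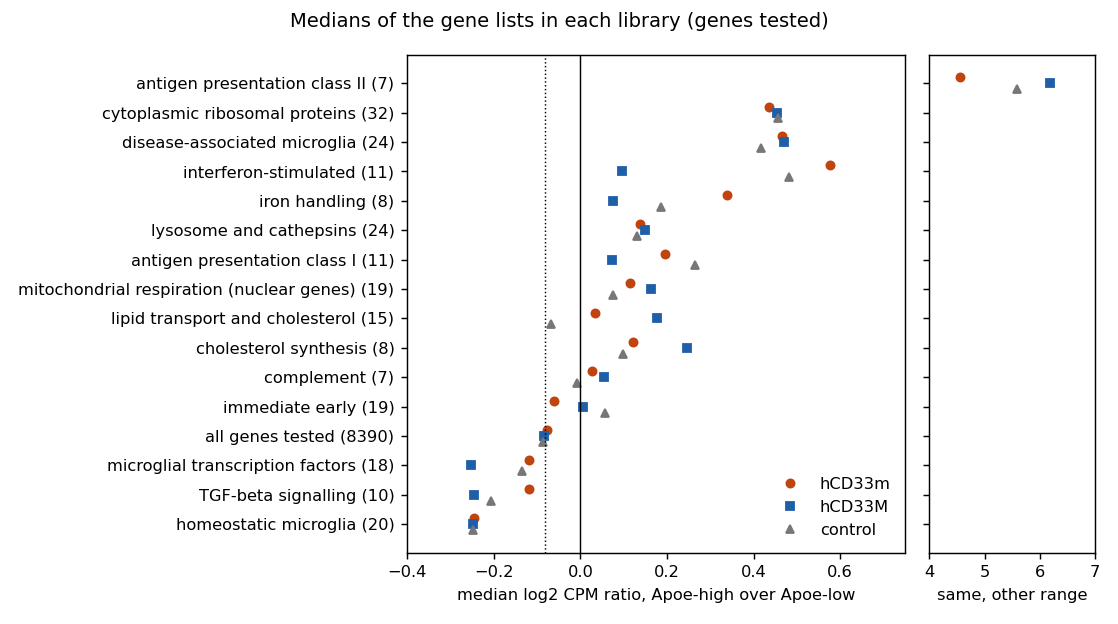
Median log2 CPM ratio of Apoe-high over Apoe-low cells (horizontal axis, scaled by UMI totals; the right panel has its own range) for each gene list in the hCD33m, hCD33M and control libraries, with the number of genes tested in parentheses. The dotted line is the median over all genes tested. Ribosomal, disease-associated and homeostatic medians nearly coincide between libraries, while interferon and iron medians spread.

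Levels within the Apoe range are a description, since Apoe sorts the cells. Rpl32 was at 1101, 1073 and 1186 CPM in hCD33m, hCD33M and control cells with 20 to under 50 Apoe UMIs per 10000, and at 1658, 1797 and 1434 CPM in those with 100 or more. Fth1 was at 2579.9, 2551 and 2579 CPM in the first of these bins and at 3639, 4473 and 4005 CPM in the last. P2ry12 was at 2993, 2997 and 3013 CPM at 20 to under 50 and at 1822, 1716 and 2243 CPM at 100 or more, with 2246, 2529 and 2179 CPM between them, so in control the middle bin was the lowest. Lyz2 stayed between 386 and 513 CPM in the cells with 5 to under 20 per 10000. In control Lyz2, H2-Aa and Cybb were highest at 50 to under 100 and not in the top bin, as was Cybb in hCD33m, so the order of the top bins differed between libraries. The top bins held 24 to 47 cells each. Cells poor in P2ry12 and Tmem119 made up 47.4%, 54.2% and 23.4% of them in hCD33m, hCD33M and control. At 20 to under 50 they made up 10.4%, 8.79% and 7.83%. The lower P2ry12 at 100 or more therefore goes with a larger share of such cells, and its part was not tested.

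**Figure D5:**
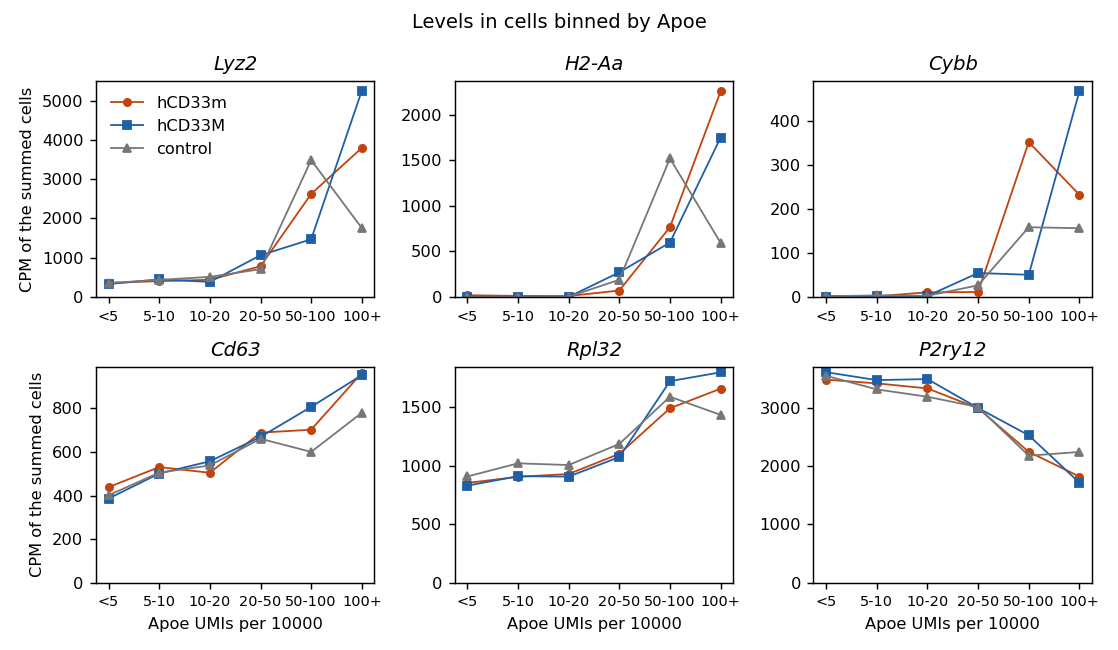
CPM of 6 genes (vertical axes, from 0) in cells summed by Apoe UMIs per 10000 (horizontal axis, 20 and above being the Apoe-high cells) in the hCD33m, hCD33M and control libraries. Cd63 and Rpl32 are higher and P2ry12 lower in the Apoe-high bins, while Lyz2, H2-Aa and Cybb are low below 20 and irregular above 50.

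Within Apoe-high cells the transgenic libraries were set against the same control library, by size only. A gene was called where its CPM differed at least 1.5-fold with an exact 95% counting interval that left out no difference, counting genes that reached 50 CPM in either library. In hCD33m 73 of 3710 genes were higher (1.97%) and 29 lower (0.782%) than in control, and in hCD33M 85 of 3700 were higher (2.3%) and 59 lower (1.59%). Both contrasts share the control cells. The intervals were not adjusted for the number of genes, so some of these calls can come from counting error alone. In the deeper Apoe-low cells 37 genes were higher (0.978%) and 9 lower (0.238%) in hCD33m. In hCD33M Apoe-low cells 30 were higher (0.797%) and 11 lower (0.292%).

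Immediate early genes, whose transcripts appear soon after a cell is stimulated, led both lists. Klf2, a zinc finger factor, was at 257 and 165 CPM in hCD33m and hCD33M Apoe-high cells, against 33.5 CPM in control ones, with log2 ratios of 2.94 (2.52 to 3.38) and 2.29 (1.84 to 2.77). In Apoe-low cells the ratios were 3.20 and 2.06. Klf4 was at 128 and 81.3 CPM, against 9.67 CPM, Fos at 509 and 283 CPM, against 82.6 CPM, Fosb at 261 and 132 CPM, against 49.0 CPM, and Dusp1 at 128 and 77.2 CPM, against 25.8 CPM. The order hCD33m, hCD33M, control held for each of them in Apoe-low cells too.

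Klf2 was also higher in Apoe-high than in Apoe-low cells of every library (0.80 ± 0.085, edgeR adjusted p 4.11e-12), with sums that overlapped because the libraries differed more than the classes. Without library as a block its adjusted p was 0.743. Fos had a ratio of 0.26 and passed in the fit with all cells, but not by UMI totals (adjusted p 0.0586) or without the class II cells (0.077). Of 19 tested immediate early genes 4 were higher and 2 lower, where 5.76% and 2.44% of all genes tested were, with a median of 0.05. By UMI totals 3 were higher and 5 lower, where 4% and 8.94% of all genes tested were. Cells with at least 5 UMIs of immediate early genes made up 67.9%, 50.4% and 19.0% of Apoe-high cells in hCD33m, hCD33M and control, against 66.7%, 42.0% and 10.8% of Apoe-low cells.

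Gm10076, a predicted gene, was at 45.1 and 29.5 CPM in hCD33m and hCD33M, against 101 CPM in control (-1.17 and -1.78), with ratios of -1.18 and -1.46 in Apoe-low cells. Gm47283, annotated on the Y chromosome, was at 7.73 CPM in hCD33m, against 70.9 CPM in control (-3.20), and at 7.31 CPM, against 63.1 CPM, in Apoe-low cells. In hCD33M it was at 59.9 CPM. Ccl12 was at 126 CPM in hCD33M Apoe-high cells, against 271 CPM in control ones (-1.10, -1.41 to -0.81), and had -0.35 in Apoe-low cells. Gm40841, Tmem189, Gmeb1 and Hist1h2ap were the other low genes in hCD33m, and Hist1h2ap, Erh, Mnt and Uvssa those in hCD33M, none beyond -1.38. Most of these ratios were far smaller in Apoe-low cells. There Gm40841, Tmem189, Gmeb1 and Hist1h2ap had -0.28, 0.03, -0.24 and -0.64 in hCD33m. Hist1h2ap, Erh, Mnt and Uvssa had -1.01, -0.94, -0.33 and -0.35 in hCD33M Apoe-low cells. Ttr, the thyroid hormone carrier of the choroid plexus, had the highest ratio in name only, as 1 cell held all 831 UMIs of hCD33m and 1 cell 1257 UMIs of hCD33M, and control Apoe-high cells had none.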

How the data were processed

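Single-cell RNA sequencing of sorted microglia (10x Chromium 3′) was analysed for hCD33m, hCD33M and control mice, 1 library each. The authors aligned reads to mm10 with Cell Ranger and deposited raw UMI counts, imported into Seurat with minimums of 200 genes per cell and 3 cells per gene. A gene at 0 may therefore have been removed. Members, gene lists and tests were chosen with earlier results of these data known.

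UMIs were summed over Apoe-high and over Apoe-low cells of each library. Both sums of a library come from the same sorted pool of mice, so library was a block. The 6 sums were fitted with edgeR 4.0.16 (glmQLFit, TMM, genes with a mean of at least 10 CPM, R 4.3.3), with adjusted p under 0.05 called. DESeq2 1.42.0 was an alternative. The fit was tested on simulated data. No doublet caller was run. Positions come from a GENCODE annotation of the same assembly. Python 3.11.15, numpy 2.4.6, scipy 1.17.1, pandas 2.3.3 and matplotlib 3.10.9 were used.

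Genes named were the 12 highest and 12 lowest ratios with the same direction in all 3 libraries and a mean of 50 CPM, up to 5 per list among 35 lists, those around Apoe, those the rule used, and for genotypes the 6 highest and 6 lowest. Some genes under this rule are not reported here. Further genes were singled out after their values were seen. Listed genes without a row in the files, such as Clec7a, Bcam and Vldlr, were not analysed here. In all, 19 alternative settings and 2 more added after seeing the data were run. Intervals are exact and cover counting error only.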

Additional observations from a re-analysis of the deposited data

Results flagged for a closer look

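Among 3538 genes with a mean of at least 50 CPM, 15 had counting intervals on opposite sides of 0 in 2 libraries for the log2 CPM ratio of Apoe-high over Apoe-low cells, scaled by UMI totals. The difference between libraries was not tested, since each genotype is 1 library. The intervals were not adjusted for the 3538 genes, so such opposite pairs can come from counting error alone. Of the genes named here, Egr1, an immediate early transcription factor, had ratios of -0.1258 in hCD33m and -0.1769 in hCD33M, against 0.265 in control. C1qc, a chain of complement C1q, had 0.0121 and 0.0541 in hCD33m and hCD33M, against -0.0311 in control. Bsg, the basigin surface protein, had 0.1117 and 0.0061 in hCD33m and hCD33M, against -0.1391 in control.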

How the results depend on the processing

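Of 35 of the named genes computed again under up to 21 alternatives, no called ratio changed sign and 45 of 723 values no longer passed. Cst3, outside these 35, turned to -0.02 by UMI totals. Of the 45, 11 came with cells thinned to 2000 UMIs and 10 with no replicate block. Higher and lower gene counts were 313 and 76 in DESeq2, 238 and 16 with no replicate block, and 250 and 49 thinned. Lower genes numbered 750 by UMI totals, 323 with no filter on low counts, 133 in cells with no UMI of the macrophage and monocyte filter genes, 127 without class II cells and 72 without cells poor in microglial transcripts (273 higher there). Leaving out 1 library gave 356 to 443 higher and 128 to 158 lower. Homeostatic members lower were 2 with no replicate block, 7 thinned and 8 without cells poor in microglial transcripts, and class II members higher were 3 without class II cells. Shares of Apoe-high cells in hCD33m, hCD33M and control were 9.44%, 7.56% and 9.88% at 10 Apoe UMIs per 10000, 3.21%, 2.12% and 3.73% at 30, and 6.05%, 4.47% and 6.03% thinned. Without cells poor in microglial transcripts hCD33m had 3.90% and hCD33M 2.996%. For hCD33m over control in Apoe-high cells, higher and lower genes were 38 and 17 at 10, 112 and 55 at 30, and 184 and 111 thinned, with 54 lower without the deepest cells, 61 without filter-gene UMIs, and 48 each without class II cells and without cells poor in microglial transcripts. For hCD33M over control they were 34 and 24 at 10, 138 and 95 thinned, and 133 higher at 30. The cause of these moves was not tested. Depth limits genes near 10 CPM most, since the Apoe-high sums are the smaller ones.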

Other observations

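Hemoglobin transcripts were at 171 CPM (Hbb-bs) and 60.5 CPM (Hba-a1) in hCD33M Apoe-low cells and at 1.02 CPM or less in every Apoe-high sum. Of 3 tested red cell markers 2 were called lower in the edgeR fit, but neither hemoglobin gene passed in DESeq2. The median log2 ratio of the 3 was -6.81 in hCD33M. For hCD33m and control the median is not given, since it rests on counts at or near 0. Mt1, a metallothionein that astrocytes and stressed cells also express, was at 173, 217 and 278 CPM in Apoe-high cells of hCD33m, hCD33M and control, against 137, 137 and 194 CPM in Apoe-low cells (log2 ratio 0.59 ± 0.0603, edgeR adjusted p 8.68e-13). Trf, the iron carrier transferrin, listed among oligodendrocyte markers, was at 859.5, 845 and 897 CPM, against 696, 724 and 761 CPM (0.35 ± 0.0354). Mbp, the myelin protein, was at 30.9, 30.5 and 32.9 CPM, against 25.4, 21.9 and 25.0 CPM, and did not pass by UMI totals (adjusted p 0.0689). Malat1, a nuclear RNA, was at 42716, 47174 and 39484 CPM, against 48043, 48911 and 44111 CPM.

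Apoe was frequent among the cells that the filters removed. Of the cells over the limit on border macrophage genes, 92.6%, 95.7% and 90.7% in hCD33m, hCD33M and control had at least 20 Apoe UMIs per 10000, as did 54.8%, 52.9% and 57.9% of those over the limit on monocyte genes. For the cells over the limit on Ccl3 and Ccl4, the shares were 10.3% (28 of 273), 24.4% (10 of 41) and 12.8% (6 of 47). Together these filters removed 384, 101 and 117 cells in hCD33m, hCD33M and control, so they took most from hCD33m.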
